A study of Homo sapiens with 6 samples.

Results

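The genes described here are *UBB*, a human polyubiquitin gene, the 6 genes of the BAG family (*BAG1* to *BAG6*) and *SQSTM1*, which encodes the autophagy receptor p62. These 8 genes were chosen by name from the 25420 genes in the deposited 3′ UTR counts, and the counts of all 3′ UTR entries of a gene were added up. The cells were MOLM-13, an established human cell line derived from acute myeloid leukaemia. DMSO cultures received the solvent alone, and C646 cultures received 10 µM of C646, an inhibitor of the acetyltransferases CBP and p300, for 2 h, with 3 replicates each. Both groups were labelled with 100 µM 4-thiouridine (4sU) during the final 1 h. 4sU is built into RNA as it is made, and alkylation turns its signal from T to C in the reads. A read with such a conversion (T > C read) was therefore taken to come from newly synthesized RNA. The number of such reads that arise without 4sU was not measured. All 6 cultures are of 1 cell line and neither an untreated nor an unlabelled library was analysed here. Nothing in the labels says how the replicates were grown apart, and the p-values then measure only the spread between these libraries. The comparison asks which of these transcripts were made more or less often when CBP/p300 was inhibited, and whether their total amount moved as well.

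Polyubiquitin genes encode ubiquitin units joined head to tail, which deubiquitinases cut into free ubiquitin, and such genes are known to be induced when cells are stressed and need more ubiquitin to mark damaged proteins. In most BAG proteins, a BAG domain binds the ATPase domain of HSP70 and makes it exchange its nucleotide and release its client. BAG1 links HSP70 to the proteasome, BAG3 hands HSP70 clients to autophagy, BAG2 inhibits the HSP70-linked ubiquitin ligase CHIP, BAG4 is also known as silencer of death domains, BAG5 carries several BAG domains, and BAG6 escorts tail-anchored and misplaced membrane proteins in the cytosol. SQSTM1 binds ubiquitinated cargo and brings it into autophagosomes.

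The promoters of the genes were searched for 4 motifs, those of heat shock factors, of the antioxidant response and of CREB, since chaperone and ubiquitin genes are known targets of heat shock factors. Windows of 300 bases, from 250 before to 50 after each annotated start, were taken from RefSeq (GRCh38.p14) on both strands, and 7 of the 8 genes matched. *BAG4* had no entry. The heat shock core GAANNTTC occurred in 6.77% of all 35116 windows and the element of 3 alternating units in 0.49%. The antioxidant core TGACNNNGC occurred in 13.3%, and the CREB site TGACGTCA in 1.85%. 2 genes held a match, shown with the letters that matched the motif in capitals, *BAG2* for the heat shock core and *UBB* for the antioxidant core.
BAG2, chr6:57172191-57172220, plus strand: tcgaccgatagGAAccTTCgcgtgggggga
UBB, chr17:16381301-16381330, plus strand: gagggcgaggTGACgcgGCgctgggccttt
The core in *BAG2* began at position −124 from the start of the gene, and the core in *UBB* at position −30 from 1 annotated start and 22 from the other. The windows of *BAG1*, *BAG3*, *BAG5*, *BAG6* and *SQSTM1* held none of these letters. A match is a description of the sequence, and no binding was measured.

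The libraries held 7252597 to 10225448 reads on 3′ UTRs, and 8.74 to 8.86% of them in DMSO and 6.34 to 6.71% in C646 were T > C reads. Values are given as reads per 1000000 reads of the library (CPM) after TMM scaling, so that T > C reads are set against total mRNA. In such bulk samples, fewer cells with a transcript and less of it per cell cannot be told apart. The myeloid genes *LYZ* (2610 to 3140 CPM in all reads), *CEBPA* (319 to 472 CPM) and *MPO* (41.7 to 62.5 CPM) were found in every library, while *CD3E* and *ALB* had no read. *EPCAM* reached at most 1.85 CPM.

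Relative to total mRNA, *BAG3* and *UBB* were made more often in C646, and *BAG1*, *BAG4* and *BAG5* less often. In T > C reads, 6 of the 8 genes could be tested, of which 2 were called higher and 3 lower (edgeR's quasi-likelihood test, adjusted p of at most 0.01 and absolute log2 fold change of at least 1). Among all 7722 genes tested, 2.97% were called higher and 33.0% lower, with a median log2 fold change of −0.83. The 3 genes that were lower thus belong to a large background, and the 2 that were higher to a small one. In all reads, 1 of 6 genes was called higher (*BAG3*) and 0 lower, beside 5.89% higher and 1.88% lower among 10851 genes. The median log2 fold change in all reads was −0.0034. *BAG6* and *SQSTM1* had too few reads for any test.

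**Figure D1:**
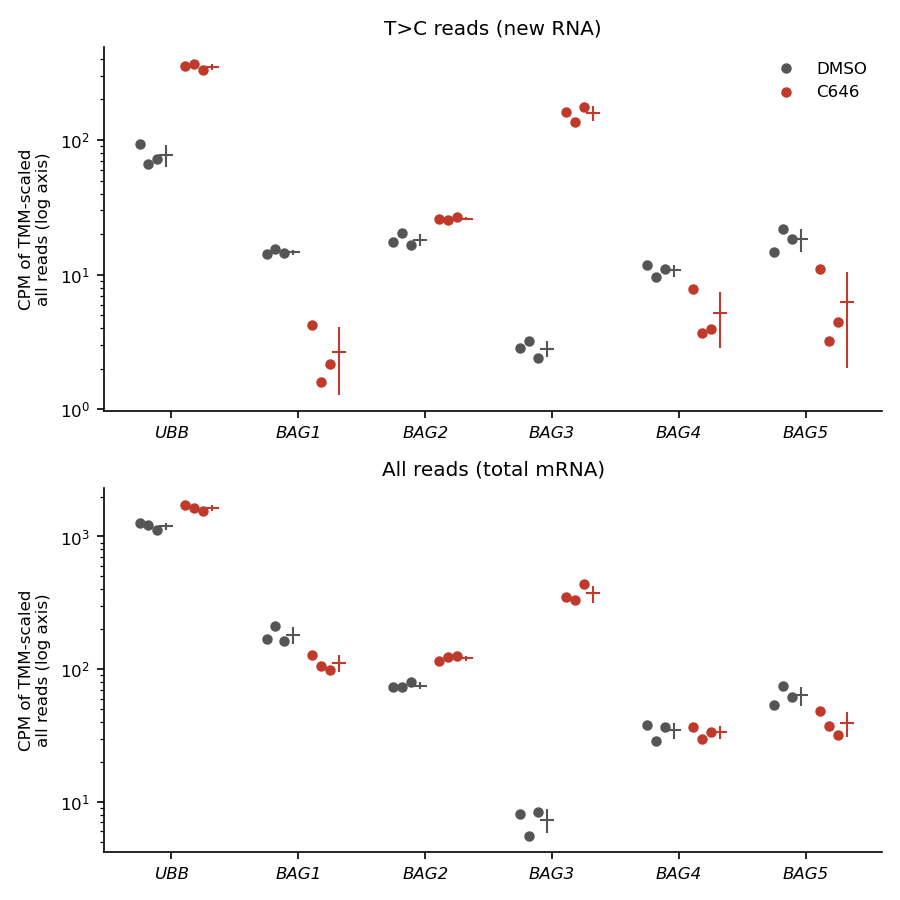
Level of the 6 genes with enough reads in each library, as CPM of TMM-scaled all reads on a log axis, for T > C reads (top) and all reads (bottom). Each dot is 1 library (grey DMSO, red C646) and the cross beside it is the mean with its SD (n = 3). *BAG3* rises from 2.42 to 3.19 CPM to 137 to 176 CPM in T > C reads, while *BAG4* is lower in T > C reads and overlaps between groups in all reads.

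*BAG3*, the HSP70 co-chaperone of selective autophagy, showed the largest fold change of the 6 genes tested. Its 3′ UTR lies on chromosome 10 (GRCh38, 119677283 to 119677817, plus strand). In T > C reads it stood at 2.85, 3.19 and 2.42 CPM in the DMSO libraries and at 160, 137 and 176 CPM in the C646 libraries. The lowest C646 library was thus far above the highest DMSO library. The log2 fold change was 5.80 (SE 0.20, 95% interval 5.39 to 6.21, edgeR adjusted p = 2.37e-20), a 55.7-fold difference and rank 14 of 7722 genes from the highest. In all reads, the level of *BAG3* was 8.12, 5.55 and 8.35 CPM in DMSO and 348, 334 and 435 CPM in C646. Total *BAG3* mRNA was thus higher by 50.4-fold (log2 5.65, SE 0.20, edgeR adjusted p = 5.96e-11), rank 18 of 10851.

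The reads of *BAG3* without a conversion rose together with the T > C reads. They stood at 5.27, 2.36 and 5.93 CPM in DMSO and at 188, 197 and 258 CPM in C646 (46.8-fold, log2 5.55, SE 0.25, edgeR adjusted p = 1.7e-09). It was the only one of the 6 genes called in these reads, where 8.01% of 10568 genes were called higher and 0.880% lower. Of the mean gain of 365 CPM in all reads, 155 CPM (42.5%) came from T > C reads and 210 CPM from reads without T > C. C646 acted for 2 h and 4sU for 1 h, and a read of new RNA can also lack a conversion. These sources of reads without T > C cannot be told apart. The T > C share of *BAG3* was 35.1, 57.5 and 29.0% in DMSO and 46.0, 41.1 and 40.6% in C646, so that the groups overlapped. The DMSO shares rest on 77, 40 and 62 reads, with 95% Wilson intervals of 25.3 to 46.2%, 42.2 to 71.5% and 19.2 to 41.3%. These intervals cover counting error only. The odds of a T > C read did not pass the test (log2 0.24, 95% interval −0.38 to 0.86, edgeR adjusted p = 0.485).

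*UBB*, which supplies ubiquitin, was also made more often, with a much smaller change in its total mRNA. Its 3′ UTR of 148 bases lies on chromosome 17 (16382598 to 16382745, plus strand), and 0.048% of its reads had more than 1 place in the genome. In T > C reads it stood at 93.8, 66.8 and 71.9 CPM in DMSO and at 353, 368 and 331 CPM in C646. Every C646 library was above every DMSO library. The difference was 4.52-fold (log2 2.18, SE 0.14, 95% interval 1.88 to 2.47, edgeR adjusted p = 3.11e-13), rank 91 of 7722. In all reads it stood at 1260, 1220 and 1110 CPM in DMSO and at 1740, 1650 and 1560 CPM in C646. That 1.37-fold difference did not pass the thresholds (log2 0.46, SE 0.12, edgeR adjusted p = 0.0132), although the groups did not overlap.

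Most of what *UBB* gained was labelled RNA. Of its mean gain of 446 CPM in all reads, 273 CPM (61.3%) came from T > C reads. Reads without T > C differed by 173 CPM, which did not pass the test (log2 0.21, 95% interval −0.065 to 0.48, edgeR adjusted p = 0.234). The T > C share of *UBB* was 7.42, 5.46 and 6.45% in DMSO and 20.3, 22.3 and 21.3% in C646. Its place among 7722 genes went from percentile 17.2 in DMSO to percentile 87.3 in C646, while the median share of these genes went from 13.3 to 7.37%. The odds of a T > C read were higher by log2 1.98 (SE 0.12, edgeR adjusted p = 4.31e-12), rank 28. In this test of the odds, which needs no scaling between libraries, *UBB* was the 1 gene of 6 called higher, beside 0.790% of 7722 genes.

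**Figure D2:**
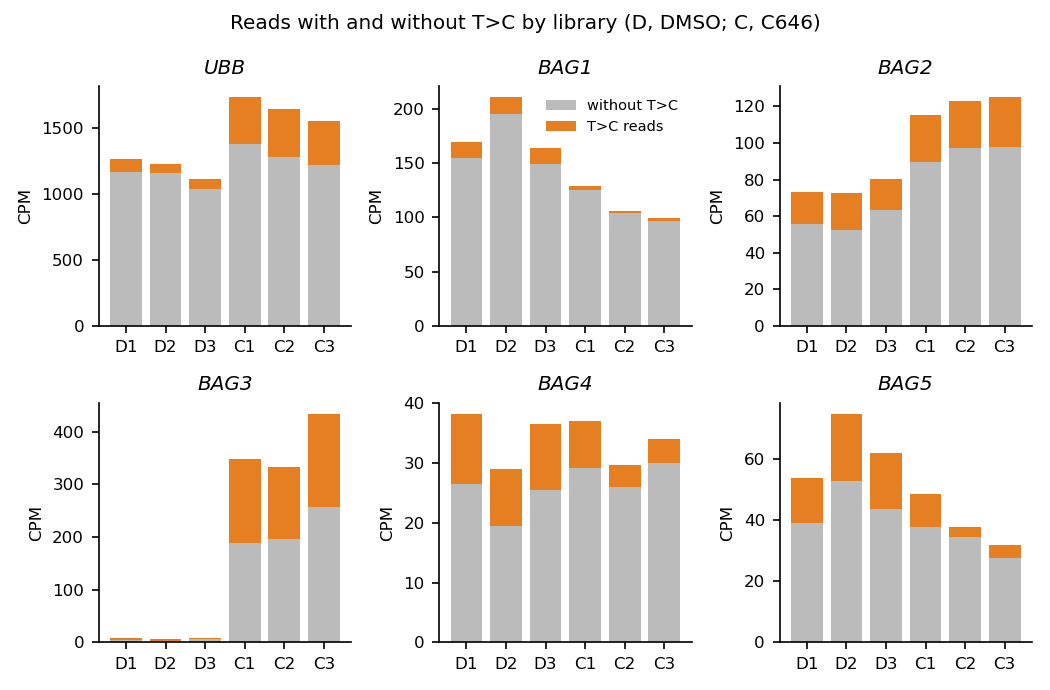
CPM of reads without T > C (grey) and T > C reads (orange) of each gene, stacked, in the DMSO libraries (D1 to D3) and the C646 libraries (C1 to C3), with 1 linear axis per gene. The orange part grows from 77.5 to 351 CPM on average in *UBB* over a grey part of 1120 and 1300 CPM, and both parts grow in *BAG3*.

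*BAG1*, the co-chaperone that links HSP70 to the proteasome, had the largest fall in new RNA of the 6 genes tested as a fold change. Its 3′ UTR lies on chromosome 9 (33252471 to 33255218, minus strand). T > C reads stood at 14.3, 15.4 and 14.4 CPM in DMSO and at 4.23, 1.59 and 2.18 CPM in C646, where they rest on 32, 13 and 22 reads. The groups did not overlap, and C646 replicate 1 was the highest of its group. The log2 fold change was −2.48 (SE 0.30, 95% interval −3.09 to −1.87, edgeR adjusted p = 7.69e-08). The level in all reads was 169, 211 and 164 CPM in DMSO and 129, 106 and 99.0 CPM in C646. The log2 fold change in all reads was −0.70 (SE 0.15, edgeR adjusted p = 0.00316), which is short of the fold threshold. The T > C share went from 8.19% ± 0.787 to 2.33% ± 0.894 (SD, n = 3).

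*BAG5* and *BAG4* were lower in T > C reads as well, at ranks 1654 and 3008 of 7722 genes from the lowest. *BAG5*, on chromosome 14 (103556544 to 103559820, minus strand), stood at 14.7, 21.9 and 18.4 CPM of T > C reads in DMSO and at 11.0, 3.19 and 4.46 CPM in C646 (log2 −1.58, SE 0.30, edgeR adjusted p = 6.35e-05). *BAG4*, on chromosome 8 (38210494 to 38213301, plus strand), stood at 11.7, 9.57 and 11.0 CPM in DMSO and at 7.80, 3.68 and 3.97 CPM in C646 (log2 −1.08, SE 0.29, edgeR adjusted p = 0.00224). In both genes C646 replicate 1 lay between the DMSO libraries and the other C646 libraries. Without it, the log2 fold changes in T > C reads were −2.24 for *BAG5*, −1.49 for *BAG4* and −2.94 for *BAG1*. The call of *BAG4* stood close to its thresholds and was lost without DMSO replicate 1 (edgeR adjusted p = 0.0178), DMSO replicate 3 (0.0117), C646 replicate 2 (0.0206) or C646 replicate 3 (0.0103).

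The total mRNA of *BAG4* did not follow its new RNA within the 2 h. In all reads *BAG4* stood at 38.2, 29.0 and 36.5 CPM in DMSO and at 37.0, 29.7 and 33.9 CPM in C646, and the groups overlapped. The log2 fold change was −0.045, with a 95% interval of −0.40 to 0.31 (edgeR adjusted p = 0.86). *BAG5* in all reads stood at 53.7, 74.7 and 61.9 CPM in DMSO and at 48.5, 37.6 and 31.9 CPM in C646. Its difference missed both thresholds (log2 −0.69, SE 0.18, edgeR adjusted p = 0.0104), although the groups did not overlap. The T > C share went from 31.3% ± 1.49 to 15.1% ± 5.22 in *BAG4* and from 28.8% ± 1.31 to 15.0% ± 7.13 in *BAG5* (SD, n = 3).

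In the test of the odds, *BAG1*, *BAG4* and *BAG5* were called lower, beside 38.3% of 7722 genes and a median log2 odds ratio of −1.0. The log2 odds ratio was −1.89 (SE 0.27) in *BAG1*, −1.39 (SE 0.34) in *BAG4* and −1.22 (SE 0.33) in *BAG5*. Each C646 library had a lower T > C share than each DMSO library in these genes. The calls of *BAG4* and *BAG5* were lost without DMSO replicate 2 (edgeR adjusted p = 0.0113 and 0.0212). That of *BAG5* was also lost without DMSO replicate 1 (edgeR adjusted p = 0.0116), DMSO replicate 3 (0.0184) or C646 replicate 2 (0.0259).

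**Figure D3:**
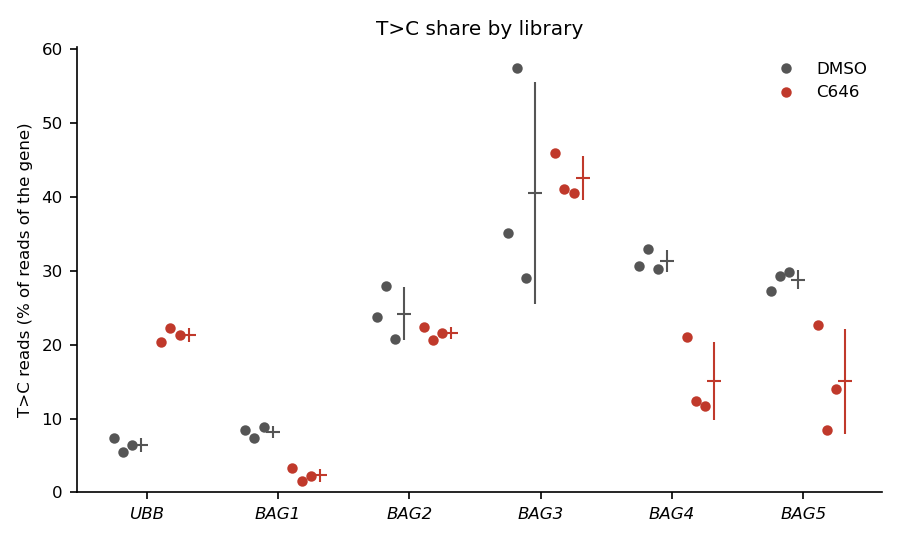
T > C reads in percent of all reads of the gene, for each DMSO library (grey) and each C646 library (red), with the mean and SD (n = 3) beside the dots. The share of *UBB* is higher in C646, the shares of *BAG1*, *BAG4* and *BAG5* are lower, and those of *BAG2* and *BAG3* overlap between groups.

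*BAG2*, the inhibitor of CHIP, had the smallest absolute log2 fold change in T > C reads of the 6 genes tested. Its 3′ UTR lies on chromosome 6 (57184191 to 57185214, plus strand). T > C reads stood at 17.4, 20.4 and 16.7 CPM in DMSO and at 25.8, 25.5 and 27.0 CPM in C646 (log2 0.52, 95% interval 0.14 to 0.90, edgeR adjusted p = 0.0181). The groups did not overlap, but the gene was not called. In all reads *BAG2* stood at 73.0, 72.8 and 80.1 CPM in DMSO and at 115, 123 and 125 CPM in C646. That 1.61-fold difference passed the threshold of p but not of fold (log2 0.68, SE 0.13, edgeR adjusted p = 0.00141). Of its mean gain of 45.7 CPM, 17.4% came from T > C reads. The T > C share was 24.2% ± 3.6 in DMSO and 21.6% ± 0.825 in C646 (SD, n = 3), and the odds did not pass the test (log2 −0.21, 95% interval −0.67 to 0.25, edgeR adjusted p = 0.418).

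**Figure D4:**
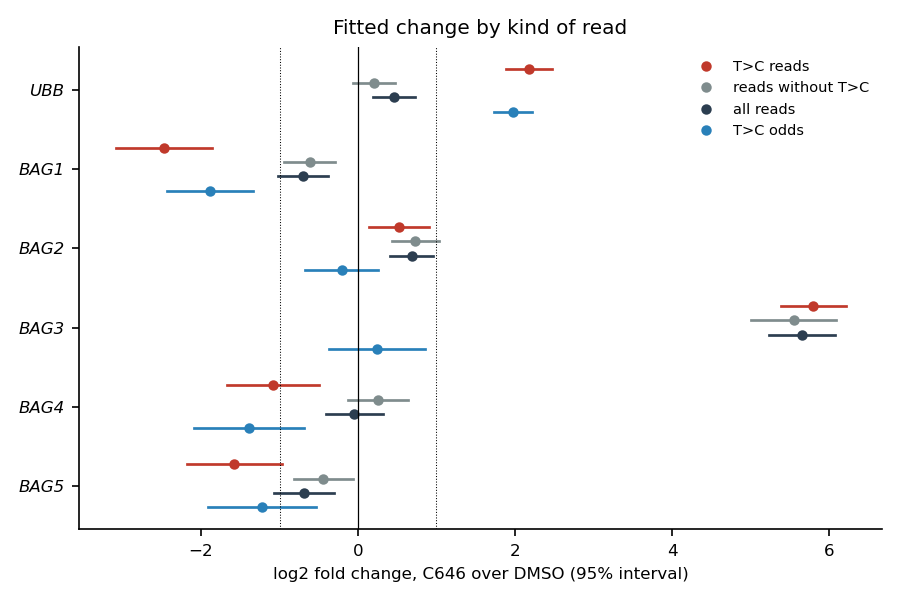
Fitted log2 fold change of C646 over DMSO for the 6 genes tested, with its 95% interval, in T > C reads, reads without T > C, all reads and the odds of a T > C read. Dotted lines mark the fold threshold of 1. The intervals of *BAG3* lie between 5.01 and 6.21 in the 3 counts and span 0 in the odds, while *UBB* is past the threshold in T > C reads and in the odds alone.

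The scaling bears on these directions. With TMM on the T > C reads themselves, the median of all genes moved from −0.83 to 0.015. Relative to that median, *BAG3* and *UBB* stayed higher and *BAG1* stayed lower. *BAG2* was then called higher in T > C reads (log2 1.36, edgeR adjusted p = 7.49e-07), while *BAG4* (log2 −0.24) and *BAG5* (log2 −0.73) were no longer called. The split of all calls moved from 2550 lower and 229 higher to 591 lower and 723 higher.

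The conversion rate, the number of T > C conversions per covered T of the 3′ UTR, is a further readout of the labelling. For *UBB* it was 0.50, 0.360 and 0.446% in DMSO and 1.57, 1.74 and 1.72% in C646. For *BAG1* it went from 0.525% ± 0.097 to 0.129% ± 0.0415 (SD, n = 3), for *BAG4* from 2.14% ± 0.207 to 1.13% ± 0.625 and for *BAG5* from 1.98% ± 0.0646 to 1.04% ± 0.445. In these 4 genes the groups did not overlap, and the two-sided exact permutation test gave p = 0.1, the smallest that 3 libraries against 3 allow. The rate of *BAG2* was 1.86% ± 0.339 in DMSO and 1.40% ± 0.213 in C646 (exact permutation p = 0.2). That of *BAG3* was 3.26% ± 0.537 in DMSO and 3.49% ± 0.396 in C646 (exact permutation p = 0.5). A T > C read of *UBB* carried 2.03 ± 0.035 conversions in DMSO and 2.34 ± 0.0651 in C646, without overlap of the libraries.

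*SQSTM1* had 0 reads in each of the 6 libraries on its 3′ UTR (chromosome 5, 179836594 to 179838077, plus strand). A count of 0 allows up to 3 reads per library, or 0.298 to 0.416 CPM, on this entry. The region around it was also nearly empty, which was looked at after the 0 was seen. Of the other protein-coding genes within 150 kb, *LTC4S*, *MRNIP* and *TBC1D9B* had 0 reads over all libraries, *CANX*, which encodes the endoplasmic reticulum chaperone calnexin, had 15, *MGAT4B* had 22 and *MAML1* had 39. *RNF130*, farther downstream, had 1347, of which 705 came from a single library. *MRNIP* lies on the other strand across the 3′ UTR of *SQSTM1*. No copy of the last 100 bases of the 3′ UTR of *SQSTM1* was found on the alternative contigs of GRCh38. The level of *SQSTM1* in these cells was therefore not measured, and no change in it can be stated.

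*BAG6* had 6 reads in DMSO replicate 3 and 2 reads in C646 replicate 2, and none in the other libraries. Its 3′ UTR on chromosome 6 (31639028 to 31639130, minus strand) has copies on 6 alternative contigs of that chromosome, and 1 of these contigs held 3 of its reads. Of 596 genes whose every 3′ UTR end was copied on such contigs, 9.56% had more than 3 reads in a library. Among 16905 other genes the share was 68.6%. Both shares count single entries on the chromosomes themselves, so reads placed on the contigs are left out. The part of these copies in the count of *BAG6* was not tested.

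The partners of *BAG6* could be followed, and most were made less often. Of the 7 genes of the BAG6 complex and of tail-anchored protein insertion, 5 were called lower in T > C reads and 0 higher, beside 33.0% lower and 2.97% higher over all genes, with a median log2 fold change of −1.62 beside −0.83 over all genes. *UBL4A*, which binds BAG6 directly in the complex, fell most, from 13.2 ± 0.720 to 1.5 ± 0.879 CPM (log2 −3.12, SE 0.34, edgeR adjusted p = 1.46e-08), and its total mRNA fell too (log2 −1.11, edgeR adjusted p = 0.000143). *GET3*, the ATPase that carries tail-anchored proteins, fell by 2.35, *GET4*, which joins it to the complex, by 1.94, and *CAMLG*, its receptor in the membrane, by 1.33 on the log2 scale in T > C reads. *RNF126*, the ubiquitin ligase that BAG6 recruits, fell by 1.62 in T > C reads (SE 0.23, edgeR adjusted p = 8.83e-07) while its reads without T > C rose (log2 1.13, SE 0.20, edgeR adjusted p = 0.00102). With TMM on the T > C reads, 1 of the 7 was called lower (*UBL4A*) and the median was −0.79, and with glmTreat, which tests against the fold threshold itself, 2 of the 7 were called lower. The call of *GET3* rested on 14, 16 and 23 T > C reads in DMSO and was lost without DMSO replicate 2 (log2 −2.36), DMSO replicate 3 (−2.06), C646 replicate 1 (−1.98) or C646 replicate 3 (−2.12). Without C646 replicate 2 it was −3.24.

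*HSPH1*, *HSPA4L* and *HSPA4*, large HSP70 exchange factors, rose in T > C reads. Of the 9 genes listed as HSP70 exchange factors or BAG3 partners, 5 were tested in T > C reads, where 3 were called higher and 0 lower, beside 2.97% higher and 33.0% lower over all genes. *HSPH1*, which encodes the HSP110 chaperone, went from 32.6 ± 5.58 to 567 ± 9.70 CPM in T > C reads (log2 4.12, SE 0.15, edgeR adjusted p = 5.06e-20). *HSPA4L* rose by log2 4.10 (SE 0.43) and *HSPA4* by log2 1.98 (SE 0.22), both of the same HSP110 family. *HSPA4L* had 1, 5 and 13 T > C reads in DMSO, and its log2 fold change was 3.5 without DMSO replicate 1 and 5.21 without DMSO replicate 3. In all reads, where 5.89% of all genes were higher, *HSPH1* (log2 2.77) and *HSPA4L* (log2 2.26) were called higher, and *HSPA4* was short of the fold threshold (log2 0.85). *HSPBP1*, another exchange factor, was not called (log2 −1.5, edgeR adjusted p = 0.0121). *HYOU1*, the large exchange factor of the endoplasmic reticulum, had 0 T > C reads in each library and was not tested. *HSPB8*, the small heat shock protein that pairs with BAG3, had 0 reads in each library, and *SYNPO2* was not called (log2 −0.36, edgeR adjusted p = 0.454).

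Among the ubiquitin shuttles and cofactors of the segregase VCP, 1 of 17 genes tested was called lower and 1 higher in T > C reads, beside 33.0% lower and 2.97% higher over all genes. The median log2 fold change was −0.27. With TMM on the T > C reads, 0 of 16 were called lower and 3 higher, and the median turned to 0.61. *ZFAND2A*, an arsenite-inducible protein of the proteasome, rose from 2.37 ± 0.796 to 17.3 ± 3.98 CPM (log2 2.86, SE 0.29, edgeR adjusted p = 2.87e-09). *UBQLN4*, a ubiquilin that carries ubiquitinated proteins to the proteasome, fell from 25, 19 and 11 T > C reads in DMSO to 0, 1 and 2 in C646 (edgeR adjusted p = 6.11e-05). In all reads 3 of 18 were called higher, beside 5.89% of all genes, namely *ZFAND2A* (log2 2.39), *UBXN4* (log2 1.44) and *UBQLN1* (log2 1.17), and *UBQLN4* was called lower (log2 −1.10). The fall of *UBQLN4* in all reads was not called once multimapped reads were left out (log2 −0.73), nor without DMSO replicate 1 (−1.06), DMSO replicate 2 (−0.98), C646 replicate 2 (−1.09) or C646 replicate 3 (−0.90).

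Genes of ubiquitin activation and of ligases that work with chaperones were called lower in a share near that of all genes. Of 14 genes tested, 5 were called lower and 0 higher in T > C reads, beside 33.0% lower and 2.97% higher over all genes. Their median log2 fold change was −0.52, above the −0.83 of all genes. In all reads 0 of 14 were called, beside 1.88% lower and 5.89% higher over all genes. *STUB1*, which encodes CHIP, fell by 2.32 (SE 0.55, edgeR adjusted p = 0.000824), from 42, 34 and 36 T > C reads to 17, 1 and 5. Without C646 replicate 1, its log2 fold change was −3.78. *UBE2D2*, an E2 enzyme, fell by 1.84 (SE 0.26), *UBA1*, the main E1 enzyme, by 1.22 (SE 0.33) and *XIAP*, a ligase that blocks caspases, by 1.21 (SE 0.22). The call of *UBA1* was lost without DMSO replicate 2 (log2 −1.20), DMSO replicate 3 (−1.11) or C646 replicate 3 (−0.99). With TMM on the T > C reads, 1 of the 14 was called lower and 1 higher, and the median turned to 0.31. With glmTreat, 1 was called lower and 0 higher.

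*RPS27A*, which encodes ubiquitin fused to a ribosomal protein, stood at 282 ± 9.39 CPM of T > C reads in DMSO and 416 ± 187 CPM in C646 and was not called (log2 0.56, edgeR adjusted p = 0.00908).

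Among other autophagy genes, calls are set beside 33.0% lower and 2.97% higher over all genes in T > C reads, and 1.88% lower and 5.89% higher in all reads. Of the autophagy receptors other than *SQSTM1*, 0 of 8 tested were called in T > C reads (median log2 fold change −0.33) and 0 of 10 in all reads (median 0.34). Of the ATG8 family, whose proteins dock these receptors on the autophagosome, 0 of 4 were called in T > C reads (median −0.046) and 0 of 6 in all reads (median 0.18). Of the autophagy core, 3 of 19 were called lower and 1 higher in T > C reads (median −0.50), and 1 of 26 was called lower in all reads. *ATG101*, a subunit of the ULK1 kinase complex, fell by 2.31 in T > C reads (SE 0.36) and by 1.09 in all reads (SE 0.21). *ATG3*, which conjugates ATG8 proteins to lipid, fell by 1.44 (SE 0.30), and *ATG5*, part of the same conjugation machinery, rose by log2 1.34 (SE 0.23). *ATG4D*, a protease of ATG8 proteins, fell by 1.88 (SE 0.60, edgeR adjusted p = 0.00885), a call that was lost without any one of the 6 libraries (log2 −2.14 to −1.67). The fall of *ATG101* in all reads was not called without DMSO replicate 1 (log2 −0.97), C646 replicate 2 (−1.11) or C646 replicate 3 (−0.88). With TMM on the T > C reads, the medians of the receptors, the ATG8 family and the autophagy core turned to 0.50, 0.79 and 0.26, 1 receptor was called higher, and 1 gene of the core was called lower and 2 higher. With glmTreat the core had 1 gene called lower and 0 higher, and *ATG3* (edgeR adjusted p = 0.0949) and *ATG5* (0.0901) were not called.

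**Figure D5:**
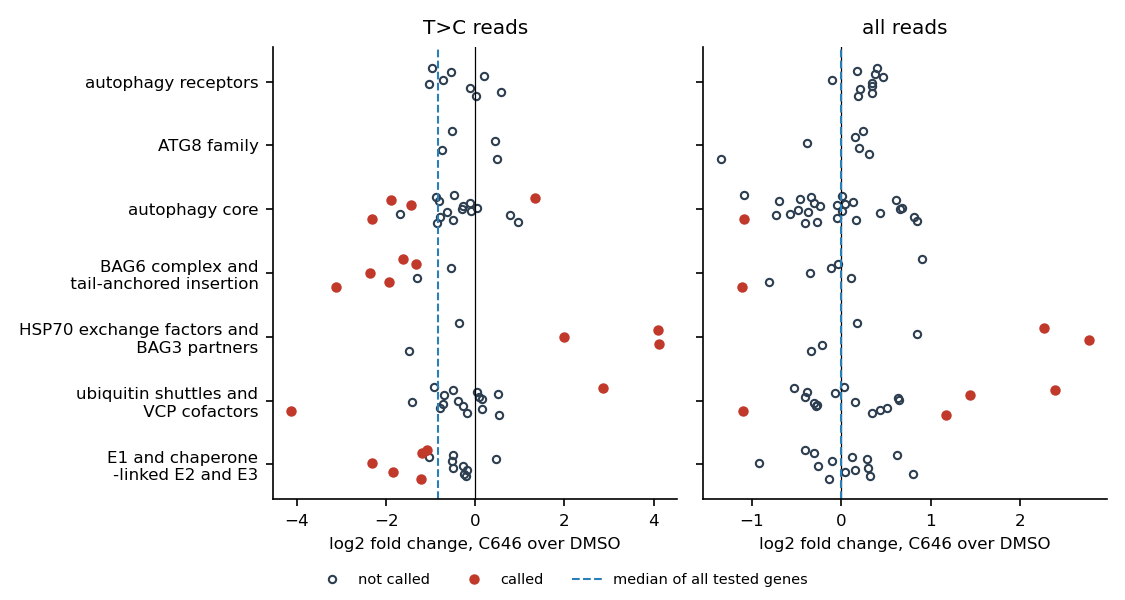
Log2 fold change of C646 over DMSO for each tested gene of 7 lists, in T > C reads (left) and all reads (right), with called genes filled in red and the median of all tested genes as a dashed line. The BAG6 complex lies mostly below the median of T > C reads (−0.83), and the 3 HSP110 genes lie at 1.98 to 4.12.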

How the data were processed

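With SLAM-Dunk v0.4.1 at default settings, the authors mapped 3′ end SLAM-seq reads (genome GRCh38) and deposited, per 3′ UTR entry and library, unnormalized counts of all reads, T > C reads, conversions and multimapped reads, and the coverage signal summed over T positions. T > C read counts include reads with a single conversion, whereas the study's own test asked for more. The length of each entry is deposited as well. The labels name CASAVA 1.9.

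Counts were summed over the entries of each gene (58136 entries; 25310 of 25420 genes had a symbol). edgeR 4.0.16 (R 4.3.3; quasi-likelihood test, filterByExpr, Benjamini-Hochberg over all genes tested) was fitted on the whole table without covariates, with TMM-scaled totals of all reads as library sizes. Odds were tested as the interaction of T > C status and treatment, with each library as a factor. The fits were tested on simulated data. DESeq2 1.42.0 was an alternative. Alternatives comprised scaling, filters, single entries, multimapped reads, thresholds, a replicate block and leaving out each library. Replicate numbers were not taken as pairs of libraries (see the pairing values in the closing section). Each 3′ UTR printed overlaps a UTR of its gene in GENCODE release 44. All 8 genes are named. From each list, called genes are named, at most 4 by change in T > C reads. Results for a further list gene and a further marker are not reported here. The members and lists were chosen with earlier results of these data known.
Python 3.11.15, pandas 2.3.3, scipy 1.17.1 and matplotlib 3.10.9 were used.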

Additional observations from a re-analysis of the deposited data

How the results depend on the processing

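*BAG3* and *UBB* were called higher and *BAG1* lower in T > C reads under every alternative run, *BAG3* was the 1 gene called in all reads and in reads without T > C throughout, and *UBB* the 1 called higher in the odds throughout. The number of the 6 genes called lower in T > C reads fell from 3 to 1 (*BAG1*) under TMM on T > C reads, under DESeq2 and size factors from T > C reads, and with glmTreat. Leaving out 1 library gave 2 to 3 genes called lower in T > C reads and 1 to 3 in the odds. The log2 fold change of *BAG4* in all reads ranged from −0.16 to 0.036 with 1 library left out and turned to 0.034 without DMSO replicate 1 and to 0.036 without C646 replicate 2, while the odds of *BAG3* ranged from −0.063 (without DMSO replicate 3) to 0.63. The difference in conversion rate (C646 minus DMSO, percentage points) ranged, with 1 library left out, over 1.20 to 1.29 in *UBB*, −0.444 to −0.347 in *BAG1*, −0.613 to −0.277 in *BAG2*, −0.00526 to 0.533 in *BAG3*, −1.37 to −0.821 in *BAG4* and −1.19 to −0.768 in *BAG5*. As T > C share of reads, on another scale by construction, it was 14.9 in *UBB*, −5.87 in *BAG1*, −2.64 in *BAG2*, 2.0 in *BAG3*, −16.3 in *BAG4* and −13.8 in *BAG5*. Genes called lower and higher in T > C reads numbered 591 and 723 under TMM on T > C reads, 565 and 660 under DESeq2 and size factors from T > C reads, 836 and 105 with glmTreat, and 1040 and 125 in genes averaging 50 T > C reads or more, which are fewer. With 1 library left out, 116 to 328 genes were lower in all reads and 37 to 196 in reads without T > C. Deviations of same-numbered libraries correlated at −0.012 to 0.0099 in T > C reads and −0.0014 to 0.23 in all reads. In all reads the mean was 0.12 for libraries of the same number and −0.064 for those of different numbers. These values cannot settle whether the libraries are paired, and the numbers were not taken as pairs. The replicate block gave 3 genes lower and 2 higher in T > C reads, 0 and 1 in all reads and in reads without T > C, and 3 and 1 in the odds, with 2587 and 226 of all genes in T > C reads. The cause of these shifts was not tested. Depth limits *BAG3* in DMSO (40 to 77 reads) and *BAG1* in C646 (13 to 32 T > C reads).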
